A study of Mus musculus with 10 samples.

Results

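The interferon response genes described here are 9 genes of antiviral defence: Stat2, Irf9 and Irf7 (transcription factors), Ifit1, Ifit3, Eif2ak2 and Bst2 (antiviral effectors), and Isg15 and Usp18 (a ubiquitin-like modifier and the protease that removes it). They were chosen by name, with earlier results of these data known. Each was read from the 1 transcript cluster of the array annotated to that symbol alone. All 9 were found among 30063 genes with such a cluster, and 8 of the 9 were among the 23255 genes tested. Isg15 did not pass the filter on low signal, so its values are given without a test.

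The study measured retinal RNA of the mouse strain C57BL/6JJmsSlc on 10 Affymetrix arrays, 2 in each of 5 groups. Of the groups, 3 are retina at postnatal day 17 with oxygen-induced retinopathy (OIR): one injected into the vitreous with ISOX DUAL, one injected with phosphate-buffered saline (PBS) and one not injected. The other 2 are untreated retina at day 17 and at day 7. In OIR, mice were kept in 75% oxygen for 5 days from day 7 and then in air, which leaves the retina short of vessels and then hypoxic, and injections were made as soon as the hyperoxia ended. ISOX DUAL is known as a bromodomain inhibitor. Bromodomain proteins read acetylated histones. Whether the 2 arrays of a group hold separate mice or pools is not stated, so a p-value reflects only how far these arrays differ, and that spread may be technical.

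As background, interferons alpha and beta bind the receptor made of Ifnar1 and Ifnar2, which activates the kinases Jak1 and Tyk2. These phosphorylate STAT2, which works with IRF9 in the complex ISGF3. ISGF3 binds the interferon-stimulated response element (ISRE) in promoters of the responding genes. IRF7, itself induced by interferon, drives further interferon production, and USP18 dampens signalling at the receptor. In retina, microglia, Müller glia and vessels can all respond to interferon.

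The promoters are shown because the ISRE is the element through which these genes are known to respond. RefSeq promoter sequence of GRCm38.p6, running from 250 bases before to 50 bases after each annotated start, was at hand for 8 of the 9 genes (Usp18 was not among them). It was searched on both strands for the ISRE core, which is GAAA, then any 2 bases, then GAAA (on the other strand TTTC, any 2 bases, TTTC). The core was found in 6 of the 8 genes, against 3.44% of 14398 tested genes with a promoter and 35.4% of 96 other interferon pathway genes. Each stretch is written on the strand of its gene, with the matched core in capitals.
Isg15, chr4:156200860-156200911, minus strand: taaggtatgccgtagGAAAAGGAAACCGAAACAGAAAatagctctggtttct
Bst2, chr8:71537572-71537617, minus strand: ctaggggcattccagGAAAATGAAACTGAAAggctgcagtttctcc
Ifit1, chr19:34640770-34640828, plus strand: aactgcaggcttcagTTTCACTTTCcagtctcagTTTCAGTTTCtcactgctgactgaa
Ifit3, chr19:34583358-34583431, plus strand: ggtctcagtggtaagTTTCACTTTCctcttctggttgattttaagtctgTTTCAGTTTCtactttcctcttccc
Stat2, chr10:128270261-128270300, plus strand: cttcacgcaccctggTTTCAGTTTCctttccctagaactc
Eif2ak2, chr17:78882535-78882564, minus strand: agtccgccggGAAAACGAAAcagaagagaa

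Isg15 holds 3 overlapping copies of the core and Bst2 holds 2 overlapping copies, all between positions -130 and -57 from the start. Ifit1 and Ifit3, both on chromosome 19, each hold 2 separate copies on the opposite strand, one reading TTTCACTTTC and one reading TTTCAGTTTC in both genes. Stat2 holds 1 copy at -222 to -213, and that of Eif2ak2 lies at 19 to 28, just inside the transcribed part. The letters were not found in the window of Irf7 or in either of the windows of Irf9. The gamma-activated site (GAS, TTCNNNGAA, which reads alike on both strands) was found in Bst2, where it overlaps the ISRE core, and in Eif2ak2. That is 2 of 8 genes, against 8.41% of tested genes and 30.2% of the 96 other interferon pathway genes. A match is a description of the letters and not a measured binding site.

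**Figure D1:**
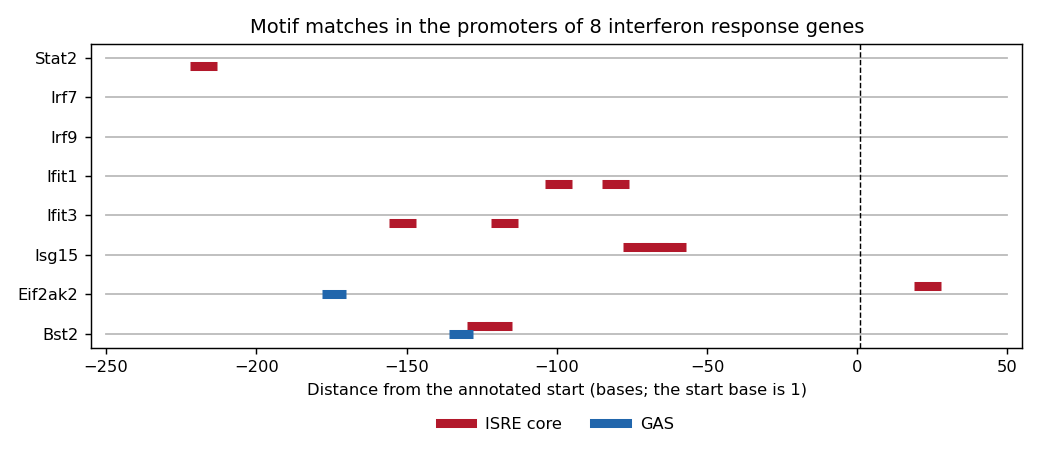
Positions of motif matches in the promoters of 8 interferon response genes, as distance in bases from the annotated start (dashed line; the start base is 1). Red bars are ISRE cores, drawn above the line where they lie on the strand of the gene and below it where they lie on the other, and blue bars are GAS matches; 6 of the 8 genes hold an ISRE core, and Irf7 and Irf9 (whose 2 windows share a line) hold none.

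Values are log2 signals as deposited, and probes differ in brightness, so levels are compared between groups for 1 gene and not between genes. The median of each array's negative control probes lay at 5.83 to 6.11. Stat2, Irf9 and Bst2 were above that median on all 10 arrays, Irf7 and Eif2ak2 on 8, and Ifit3 on 2. Ifit1, Isg15 and Usp18 were below it on every array, so a change in these 3 genes could have been missed, their differences are not exact sizes and no fold is given for them. Rod markers were bright, as for retina (Gnat1 at 8.53 to 13.22), whereas all 5 neutrophil markers and 4 of 5 lymphocyte markers on the array were below the negative control median on every array. In bulk retina, fewer cells of a type and less RNA per cell cannot be told apart.

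Stat2, which works with IRF9 in ISGF3, moved least of the 9 genes. It read 7.69 and 7.71 with ISOX DUAL, 7.74 and 7.68 with PBS, 7.77 and 7.77 in uninjected OIR, 7.42 and 7.76 in untreated day 17 retina and 7.49 and 7.53 in untreated day 7 retina. The 3 OIR groups lay within 0.09 of each other, and the lower of the untreated day 17 arrays lay below them. Group means of Stat2 spanned 0.26 log2 in all.

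Irf9, the DNA-contacting subunit of ISGF3, read 6.58 and 6.65 with ISOX DUAL, 6.75 and 6.52 with PBS, 6.87 and 6.78 in uninjected OIR, 6.16 and 6.38 in untreated day 17 retina and 6.18 and 6.14 in untreated day 7 retina. All 6 OIR arrays were above all 4 untreated arrays. By mean the order was uninjected OIR (6.82), PBS (6.63), ISOX DUAL (6.61), untreated day 17 (6.27) and untreated day 7 (6.16). The PBS and ISOX DUAL arrays overlapped, as did those of the 2 untreated groups.

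Irf7, the interferon-induced factor that amplifies the response, read 6.28 and 6.19 with ISOX DUAL, 6.35 and 6.18 with PBS, 6.95 and 6.49 in uninjected OIR, 6.28 and 6.57 in untreated day 17 retina and 5.74 and 6.04 in untreated day 7 retina. The first uninjected OIR array was the highest and both day 7 arrays the lowest. The uninjected OIR arrays overlapped those of untreated day 17 retina, and both day 7 arrays were below their negative control median.

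Eif2ak2 encodes PKR, the kinase that senses double-stranded RNA and halts translation. It read 6.54 and 6.70 with ISOX DUAL, 6.86 and 6.58 with PBS, 6.27 and 6.09 in uninjected OIR, 6.07 and 5.94 in untreated day 17 retina and 5.87 and 6.03 in untreated day 7 retina. The 4 injected arrays were the 4 highest, and the ranges of the injected groups overlapped each other. Means were 6.72 with PBS, 6.62 with ISOX DUAL, 6.18 in uninjected OIR, 6.00 at day 17 and 5.95 at day 7, and the last 2 groups overlapped.

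Bst2 encodes tetherin, a membrane protein that holds budding virus at the cell surface. It read 6.49 and 6.58 with ISOX DUAL, 6.70 and 6.59 with PBS, 7.34 and 6.56 in uninjected OIR, 6.98 and 6.52 in untreated day 17 retina and 6.56 and 6.42 in untreated day 7 retina. The arrays of uninjected OIR differed by 0.78 log2, more than the range of group means (0.46). The first of them was also the highest array for Irf7 (6.95) and for the microglia and macrophage genes C1qb (7.64) and Cd68 (7.40). It was not the highest for the other 9 markers of these cells and was the lowest for Tmem119 (6.34), and the highest mean over the 11 markers was on the second ISOX DUAL array (6.47 against 6.43), where Bst2 read 6.58 and Irf7 6.19. The part of these cells in the Bst2 and Irf7 signals was not tested.

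The IFIT proteins bind foreign RNA and block its translation. Ifit1 read 5.01 and 5.65 with ISOX DUAL, 5.48 and 5.34 with PBS, 5.42 and 5.03 in uninjected OIR, 5.42 and 5.22 in untreated day 17 retina and 4.64 and 4.69 in untreated day 7 retina. All 8 day 17 arrays, with or without OIR, were above both day 7 arrays. Ifit3 read 5.89 and 6.29 with ISOX DUAL, 5.97 and 5.92 with PBS, 5.81 and 5.81 in uninjected OIR, 5.75 and 6.00 in untreated day 17 retina and 5.61 and 5.45 in untreated day 7 retina. Its day 7 arrays were likewise the 2 lowest, and its highest value was that of the second ISOX DUAL array. Ifit3 has a close paralog, Ifit3b, and how far their probes share signal is not known here.

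Isg15 is attached to other proteins like ubiquitin, and Usp18 removes it. Isg15 read 3.98 and 4.27 with ISOX DUAL, 4.31 and 4.10 with PBS, 3.92 and 4.27 in uninjected OIR, 3.61 and 3.88 in untreated day 17 retina and 3.72 and 3.93 in untreated day 7 retina. The 6 OIR arrays reached from 3.92 to 4.31 and the 4 untreated ones from 3.61 to 3.93, all far below the negative control medians. Usp18 read 5.30 and 5.61 with ISOX DUAL, 5.50 and 5.49 with PBS, 5.44 and 5.05 in uninjected OIR, 5.44 and 5.46 in untreated day 17 retina and 5.07 and 5.17 in untreated day 7 retina. The second uninjected OIR array and both day 7 arrays were the lowest for Usp18.

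**Figure D2:**
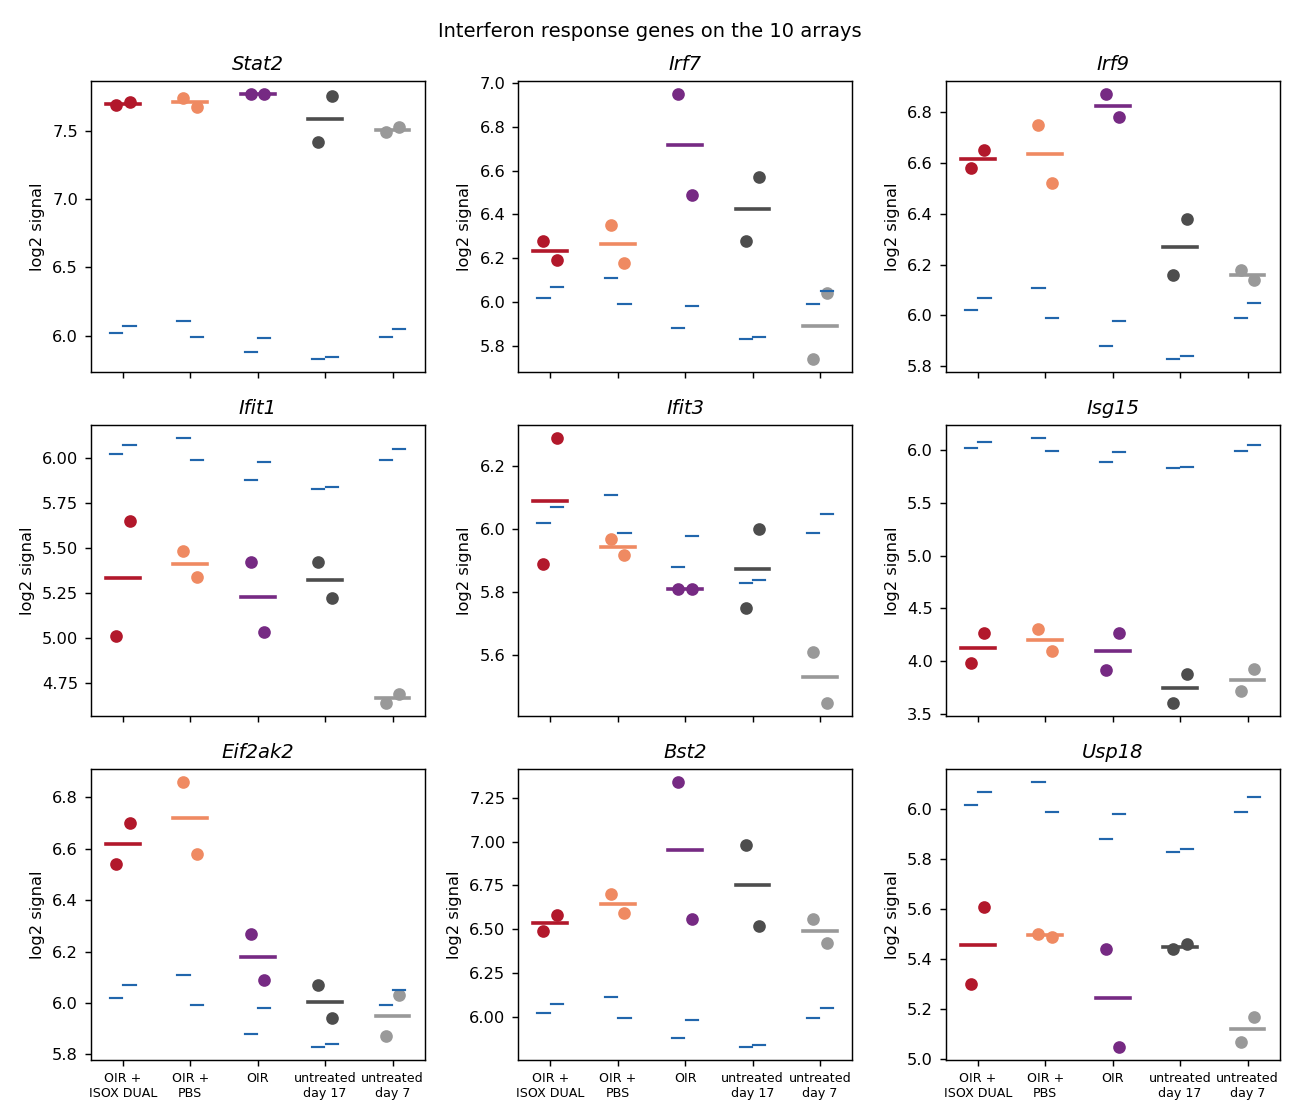
Log2 signal of the 9 genes on the 10 arrays, with 1 panel per gene and its own vertical range; dots are arrays (first left, second right), thick bars are group means and thin blue bars are the medians of the array's negative control probes. Irf9 is higher on all 6 OIR arrays than on the 4 untreated ones, Eif2ak2 is highest on the 4 injected arrays, and Ifit1, Isg15 and Usp18 lie below the negative control medians throughout.

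The first comparison asked whether retinopathy raises the interferon response in retina that was not injected. Irf9 had the largest difference of the 8 tested genes between uninjected OIR and untreated day 17 retina, with means of 6.82 ± 0.07 and 6.27 ± 0.15 (SD, n = 2 arrays each), a 1.46-fold difference (0.55 ± 0.11 log2, SE). It did not pass the threshold (adjusted p = 0.141, limma with Benjamini-Hochberg adjustment over 23255 genes; unadjusted p = 0.00147). Irf7 differed by 0.30 ± 0.18 log2, Bst2 by 0.19 ± 0.25, Stat2 by 0.18 ± 0.12 and Eif2ak2 by 0.18 ± 0.13. The effectors Ifit3 (-0.06 ± 0.15) and Ifit1 (-0.09 ± 0.21) and the protease gene Usp18 (-0.20 ± 0.15) had values below 0, all with intervals that span it. In all, 0 of 8 tested genes passed, against 0.495% of all genes, and 1 of 8 had an unadjusted p under 0.05, against 6.10% of all genes. Without overlap and higher in OIR were 3 of 8 (Stat2, Irf9 and Eif2ak2), against 9.44% of all genes. For Stat2 and Eif2ak2 this was nearly a tie. The lower OIR array and the higher untreated array read 7.77 and 7.76 for Stat2, 6.09 and 6.07 for Eif2ak2, and 6.78 and 6.38 for Irf9. The median difference was 0.18 over the 8 and -0.04 over all genes tested. Isg15, which was not tested, averaged 4.09 in uninjected OIR and 3.74 in untreated retina. The difference of Bst2 was -0.20 without the first OIR array and -0.04 without the second untreated array, and Irf7 lay at 0.07 without the first OIR array.

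**Figure D3:**
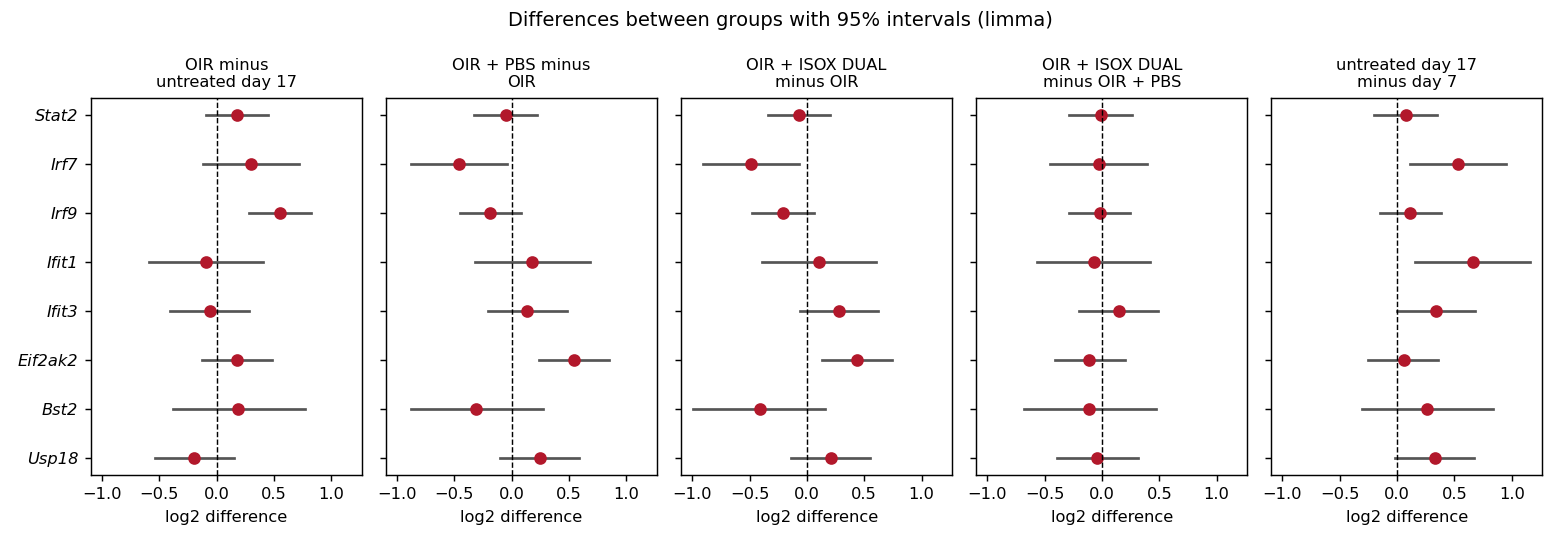
Log2 differences (dots) with 95% intervals (lines) of the 8 tested genes in 5 comparisons, from the limma fit over 10 arrays; the dashed line is 0. Irf9 stands at 0.55 in uninjected OIR against untreated retina, Eif2ak2 at 0.54 and 0.44 in the injected groups against uninjected OIR, and all 8 genes lie within 0.15 of 0 between ISOX DUAL and PBS.

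Elsewhere in the pathway no gene passed in this comparison either. The lists hold ligands, receptors and kinases, other STAT and IRF factors, nucleic acid sensors, antiviral effectors, ISG15 conjugation, negative regulators, and interferon gamma and MHC class I genes. Of the 123 genes on them 111 were on the array by a single symbol and 94 were tested. A positive difference was found for 63 of 94, with a median of 0.03, against 40.0% of all genes and a median of -0.04. The smallest p belonged to H2-K1, an MHC class I heavy chain gene, which stood at 7.37 and 7.08 in uninjected OIR against 6.56 and 6.74 in untreated retina (0.58 ± 0.12 log2, adjusted p = 0.141). Sting1, the adaptor of cytosolic DNA sensing, stood at 6.32 and 5.75 against 5.27 and 5.12 (0.85 ± 0.18, adjusted p = 0.159), with both untreated arrays below the negative control median and a difference of 0.56 without the first OIR array. H2-D1, another class I gene, differed by 0.48 ± 0.12 (adjusted p = 0.268), and the nucleotide kinase gene Cmpk2 by -0.43 ± 0.12 (adjusted p = 0.403). The tested ligand genes gave 0 of 8 positive values, with a median of -0.09. Only these 8 of the 16 ligand genes on the array passed the filter on low signal, and Ifnb1 and Ifng did not. Ifna11 and Ifna14, which passed it, were below the negative control median on every array of both groups. Of 11 microglia and macrophage markers 9 had a positive difference (median 0.16), with list means of 6.43 and 6.15 on the OIR arrays and 6.06 and 6.10 on the untreated arrays; Aif1, Tyrobp and P2ry12 were below the negative control median on every array. Vessel markers were higher too: all 5 endothelial markers (median 0.18) and all 4 pericyte markers (median 0.33) had a positive difference, with 0 past the threshold. Like Irf9, both list means were higher on all 6 OIR arrays than on the 4 untreated ones (endothelium 7.63 to 7.77 against 7.24 to 7.41, pericytes 7.19 to 7.59 against 6.53 to 7.16). The single pericyte markers did not all follow their mean. In each injected group only 2 of 4 had a positive difference against untreated day 17 retina, beside all 5 endothelial markers. The part of microglia or vessels in these values was not tested.

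Injection was compared next, by setting each injected OIR group against uninjected OIR. Eif2ak2 was higher in both. With PBS it averaged 6.72 ± 0.20 and in uninjected OIR 6.18 ± 0.13 (SD, n = 2 arrays each), which is 1.46-fold (0.54 ± 0.13 log2, SE; unadjusted p = 0.00358), and it did not pass the limma threshold (adjusted p = 0.621). With ISOX DUAL it averaged 6.62 ± 0.11, which is 1.35-fold over uninjected OIR (0.44 ± 0.13 log2, unadjusted p = 0.0111, adjusted p = 0.911). The uninjected OIR arrays read 6.27 and 6.09 for Eif2ak2, near their negative control medians of 5.88 and 5.98, so these folds are not exact. Irf7 went the other way without passing, at 0.728-fold with PBS (-0.46 ± 0.18 log2, adjusted p = 0.966) and 0.712-fold with ISOX DUAL (-0.49 ± 0.18 log2, adjusted p = 0.991). The microglia and macrophage marker means were 6.18 and 6.29 with PBS, 6.33 and 6.47 with ISOX DUAL, and 6.43 and 6.15 in uninjected OIR. Lens marker means were higher on the 4 injected arrays (6.47 and 7.68 with ISOX DUAL, 6.15 and 6.37 with PBS) than on any uninjected array (5.69 to 6.10), as Eif2ak2 was. All 7 lens markers had a positive difference against uninjected OIR in both injected groups (medians of 0.93 with ISOX DUAL and 0.21 with PBS). All 4 ganglion cell markers had a negative one (medians of -1.01 with ISOX DUAL and -0.61 with PBS), and no marker of either list passed. The part of these cells in the Eif2ak2 values was not tested. Both comparisons use the same uninjected arrays, so their likeness is no separate evidence, and without the first of these the difference of Irf7 was -0.23 with PBS and -0.26 with ISOX DUAL.

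The remaining genes split in the same way in both injected groups. Against uninjected OIR, the differences with PBS were -0.05 for Stat2, -0.19 for Irf9 and -0.31 for Bst2, and 0.13 for Ifit3, 0.18 for Ifit1 and 0.25 for Usp18, with standard errors of 0.11 to 0.25. With ISOX DUAL they were -0.07, -0.21 and -0.41 for Stat2, Irf9 and Bst2, and 0.28, 0.11 and 0.21 for Ifit3, Ifit1 and Usp18. The factor genes and Bst2 thus lay below the uninjected mean and the 3 dim genes above it, and none of these values passed. With PBS, 0 of 8 genes passed, as did 0% of all genes, and 2 of 8 had an unadjusted p under 0.05, against 4.29% of all genes. With ISOX DUAL, 0 of 8 passed, against 0.00430% of all genes, and 2 of 8 had an unadjusted p under 0.05, against 4.29%. Leaving out the first uninjected array turned Bst2 to 0.09 with PBS and brought it to -0.02 with ISOX DUAL, and leaving out the second turned Ifit1 to -0.01 with PBS and -0.09 with ISOX DUAL.

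Among the other pathway genes 49 of 94 (52.1%) were higher with PBS than in uninjected OIR (median 0.01), and 0 passed. Of all genes 52.5% were higher (median 0.01), so the pathway genes were at the background. The smallest p belonged to Gbp9, of the guanylate-binding proteins, which are interferon-induced GTPases. Gbp9 read 6.52 and 6.33 with PBS against 6.16 and 5.95 in uninjected OIR (0.37 ± 0.12, adjusted p = 0.966). Sting1 came next, at 5.57 and 5.40 with PBS against 6.32 and 5.75 in uninjected OIR (-0.55 ± 0.18), and its difference was -0.27 without the first uninjected array. It was followed by Gbp4 (0.33 ± 0.11) and by Parp12, an antiviral ADP-ribosyltransferase gene (0.35 ± 0.14).

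Set against untreated day 17 retina, the injected OIR groups had higher Eif2ak2 and Irf9. Eif2ak2 stood 1.65-fold above untreated retina with PBS (0.72 ± 0.13 log2, adjusted p = 0.477, rank 28 of 23255 by p in limma) and 1.53-fold with ISOX DUAL (0.61 ± 0.13, adjusted p = 0.268). Its untreated day 17 arrays read 6.07 and 5.94, near their negative control medians of 5.83 and 5.84. These medians were 6.11 and 5.99 with PBS and 6.02 and 6.07 with ISOX DUAL, so the Eif2ak2 folds are not exact. Irf9 stood 1.28-fold above untreated retina with PBS (0.36 ± 0.11) and 1.27-fold with ISOX DUAL (0.34 ± 0.11), beside 1.46-fold in uninjected OIR, and the adjusted p were 0.541 and 0.473. For Irf7 the difference was -0.16 ± 0.18 log2 with PBS, and it was -0.19 ± 0.18 log2 with ISOX DUAL. For the remaining tested genes the values with PBS were 0.13 (Stat2), 0.09 (Ifit1), 0.07 (Ifit3), 0.05 (Usp18) and -0.11 (Bst2), and with ISOX DUAL 0.11 (Stat2), 0.22 (Ifit3), 0.01 (Ifit1 and Usp18 each) and -0.22 (Bst2). With PBS 0 of 8 passed (0% of all genes) and 2 of 8 had an unadjusted p under 0.05 (9.14% of all genes), and with ISOX DUAL 0 of 8 passed (0.0172%) and 2 of 8 were under 0.05 (8.46%). The untreated arrays serve in both.

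ISOX DUAL was compared with PBS to ask what the inhibitor adds to injection. All 8 tested genes lay within 0.15 log2 of the PBS level. The largest difference was that of Ifit3, at 5.89 and 6.29 with ISOX DUAL against 5.97 and 5.92 with PBS (0.15 ± 0.15 log2, 95% interval -0.20 to 0.49). In these 2 groups Ifit3 was above the negative control median only on the second ISOX DUAL array. Without that array its difference was -0.05. For the ISGF3 genes the intervals were the narrowest of the 8: Stat2 differed by -0.01 (-0.29 to 0.26) and Irf9 by -0.02 (-0.29 to 0.24). Irf7 differed by -0.03 (-0.45 to 0.39), Eif2ak2 by -0.11 (-0.41 to 0.20) and Bst2 by -0.11 (-0.68 to 0.47). Ifit1 (-0.07, -0.57 to 0.42) and Usp18 (-0.04, -0.39 to 0.31) were below the negative control median in both groups. A p that misses the threshold does not show that the groups are alike, and the intervals leave room for differences of the sizes they span. By limma 0 of 8 passed, as did 0% of all genes, and 0 of 8 had an unadjusted p under 0.05, against 1.02% of all genes.

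The second ISOX DUAL array stood above the first for Ifit1 (5.65 and 5.01), Ifit3 (6.29 and 5.89) and Usp18 (5.61 and 5.30). The same was seen for Rsad2, which encodes the antiviral enzyme viperin, at 5.09 and 6.15 with ISOX DUAL against 5.03 and 4.99 with PBS (0.61 ± 0.28, unadjusted p = 0.0639, adjusted p = 1 in limma), a difference of 0.08 without that array. The guanylate-binding protein gene Gbp2 stood at 5.43 and 5.84 against 5.36 and 5.28 (0.31 ± 0.18). In these 2 groups Gbp2 was below the negative control median on every array. Rsad2 was above it only on the second ISOX DUAL array, so the sizes are not exact. That array also had the highest mean over the 7 lens markers, 7.68, against 6.47 on the first ISOX DUAL array and 6.15 and 6.37 with PBS, and the highest microglia marker mean, 6.47, against 6.33 on the first and 6.18 and 6.29 with PBS. The part of lens or microglia in these values was not tested. Over the other pathway genes 59 of 94 were higher with ISOX DUAL (median 0.02, against 57.0% of all genes and a median of 0.01), and 0 passed.

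Untreated day 17 retina was compared with day 7 retina to see how these genes change as the retina matures. All 8 tested genes had a positive difference at day 17, with a median of 0.30 log2, against 52.0% of all genes and a median of 0.01. Ifit1 had the largest, at 5.32 ± 0.14 at day 17 and 4.66 ± 0.03 at day 7 (SD, n = 2 arrays each; 0.66 ± 0.21 log2, adjusted p = 0.103, limma). Irf7 differed by 0.53 ± 0.18 (adjusted p = 0.121), Ifit3 by 0.34 ± 0.15 (adjusted p = 0.218) and Usp18 by 0.33 ± 0.15 (adjusted p = 0.244). Bst2 (0.26 ± 0.25), Irf9 (0.11 ± 0.11), Stat2 (0.08 ± 0.12) and Eif2ak2 (0.06 ± 0.13) differed less. On both day 7 arrays Ifit1, Irf7, Ifit3, Usp18 and Eif2ak2 were below the negative control median. Ifit1 and Usp18 were below it on both day 17 arrays as well, so the sizes for these genes are not exact. Isg15, not tested, averaged 3.74 at day 17 and 3.82 at day 7. Of the 8 genes 0 passed, against 10.6% of all genes, so the count of calls is no higher than that of the background. At an unadjusted p under 0.05 there were 3 of 8 (Irf7, Ifit1 and Ifit3), against 22.8%, and 4 of 8 were higher without overlap, against 20.7%. Stat2 turned to -0.10 without the second day 17 array, and Eif2ak2 to -0.01 without the first day 17 array and -0.02 without the first day 7 array.

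Of the other interferon pathway genes 5 of 94 passed between the days, a smaller share than the 10.6% of all genes. Gbp7, a guanylate-binding protein gene, rose to 6.78 and 6.68 at day 17, against 5.69 and 5.34 at day 7 (1.22 ± 0.19 log2, adjusted p = 0.00649), and Gbp9 rose by 0.66 ± 0.12 (6.02 and 6.04 against 5.31 and 5.41, adjusted p = 0.0122). Gbp3 (0.60 ± 0.14, adjusted p = 0.0376) and Ifit3b (0.92 ± 0.23, adjusted p = 0.0408) rose too, and the receptor gene Ifnar1 fell to 8.59 and 8.64, against 9.04 and 9.00 (-0.40 ± 0.08, adjusted p = 0.0168). In all, 80 of 94 had a positive difference (median 0.14), against 52.0% of all genes (median 0.01). Some of the 80, such as Ifih1, Trim30a, Herc6 and Dhx58, were below the negative control median on every array of both days. The 4 genes that rose past the threshold were below the negative control median on both day 7 arrays. Gbp3 and Ifit3b were below it on both day 17 arrays as well, so the sizes are not exact.

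Of these 5 calls, that of Gbp7 remained under all 19 other settings (adjusted p from 0.00201 to 0.0488). The other 4 were lost with array weights (Gbp9 at 0.131, Ifnar1 at 0.0869, Gbp3 at 0.293 and Ifit3b at 0.386), with only the arrays of both groups, and when single arrays were left out. Ifnar1 was also lost with a trend in eBayes (0.0575) and Ifit3b with quantile normalization (0.0614). Gbp9 lost its call without the first day 17 array (adjusted p = 0.0507) or the first day 7 array (0.0514), and Ifnar1 without the first day 17 array (0.0663) or either ISOX DUAL array (0.0503). Gbp3 was lost by leaving out any of the 10 arrays, with an adjusted p of 0.0506 to 0.140. Ifit3b was lost by leaving out any but the ISOX DUAL arrays, with an adjusted p of 0.0507 to 0.173.

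Cell composition also differs between the days. Mean levels of 4 rod markers were 11.31 and 11.50 at day 17 and 10.10 and 9.45 at day 7, and those of 4 pericyte markers were 7.15 and 7.16 at day 17 and 6.57 and 6.53 at day 7. Those of 5 endothelial markers were 7.41 and 7.37 at day 17 and 7.24 and 7.26 at day 7. Of these 5, 4 had a positive difference (median 0.32), and Kdr was lower at day 17. The mean of 11 microglia and macrophage markers was 6.06 and 6.10 at day 17 and 6.18 and 6.16 at day 7, so it was not higher at day 17. The part of cell composition in the values of the interferon genes was not tested.

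**Figure D4:**
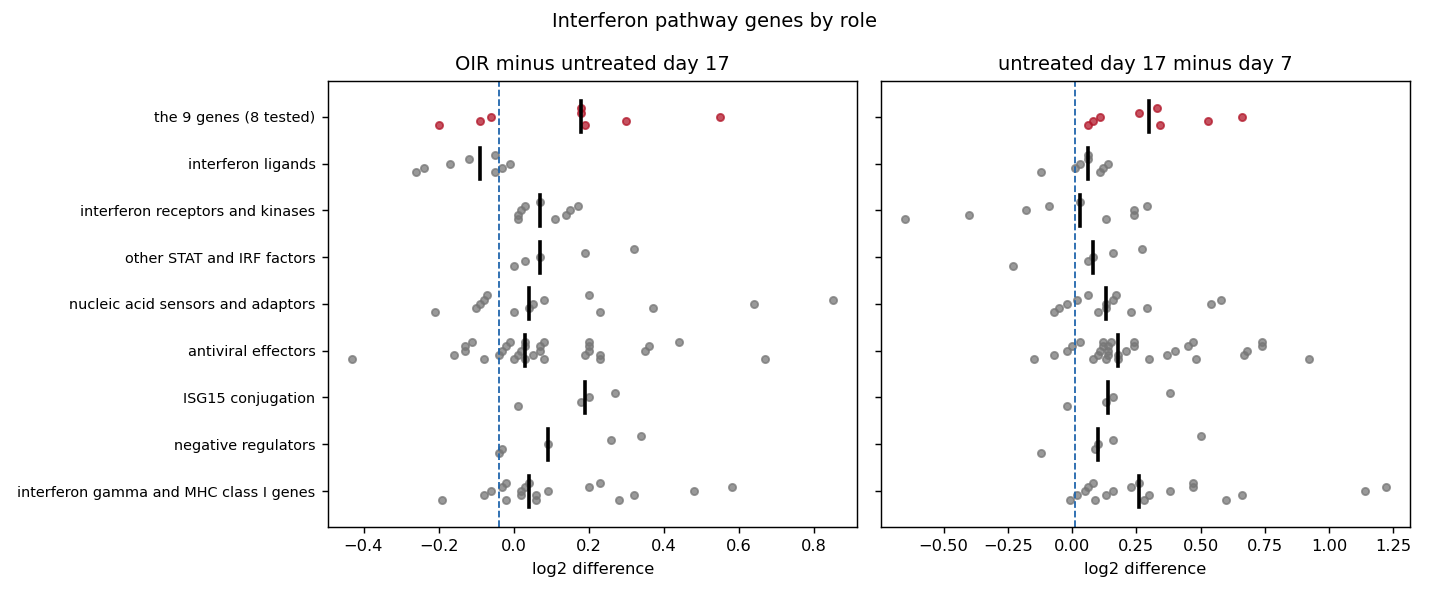
Log2 differences of the 8 tested interferon response genes (red) and of 94 other pathway genes (grey, by list; Trim25 is on 2 lists) in uninjected OIR against untreated day 17 retina (left) and in untreated day 17 against day 7 retina (right); black bars are list medians and the dashed line is the median of all genes tested. The 8 genes have medians of 0.18 and 0.30, and most antiviral effectors (28 of 31) and interferon gamma and MHC class I genes (18 of 19) lie above 0 between the days, against 52.0% of all genes.

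The mean profile of the 8 tested genes, each centred on its own mean, was lowest on the day 7 arrays (-0.33 and -0.29). It stood at 0.26 and -0.03 in uninjected OIR, 0.19 and 0.06 with PBS, -0.01 and 0.19 with ISOX DUAL, and -0.04 and 0.00 in untreated day 17 retina, so uninjected OIR and ISOX DUAL overlapped with untreated day 17 retina, and both PBS arrays lay above it. Over the 10 arrays, which form 5 groups and are not independent points, the 8 other genes most like this profile were Samd9l (r of 0.97), Zfp185 (0.96), Teddm2 and Pdzrn4 (0.94 each), and Irgm1, Xaf1, Igtp and Oasl2 (0.93 each), given as a description. Of these 8, 5 were on the pathway lists, namely Samd9l and Xaf1 (antiviral effectors), Irgm1 and Igtp (immunity-related GTPases) and Oasl2 (of the oligoadenylate synthetase family). Samd9l read 5.02 and 5.46 with ISOX DUAL, 5.53 and 5.30 with PBS, 5.97 and 5.14 in uninjected OIR, 5.27 and 5.13 in untreated day 17 retina and 4.40 and 4.51 in untreated day 7 retina. Its highest array was the first of uninjected OIR, which was also the highest for Irf7, Irf9 and Bst2. Only on that array was Samd9l above the negative control median (5.88). Zfp185, Teddm2, Pdzrn4, Irgm1 and Igtp were below it on every array, so their r values describe signal near the negative controls.

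**Figure D5:**
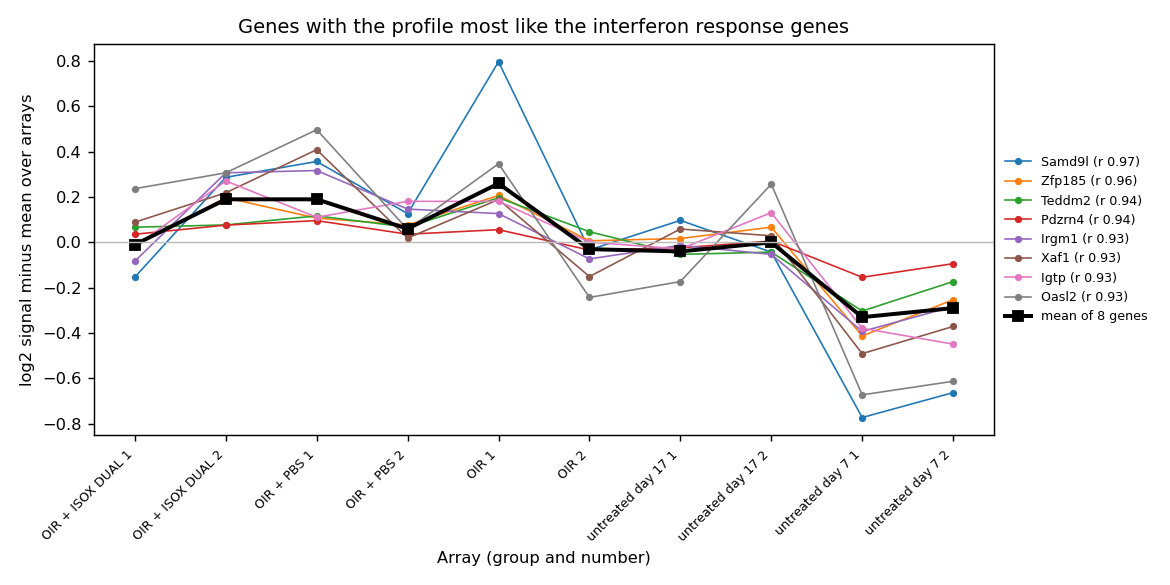
Log2 signal minus the gene's mean over the 10 arrays, for the mean of the 8 tested interferon response genes (black squares) and the 8 other genes of highest Pearson correlation with it (r in the legend); arrays run along the horizontal axis by group. Both day 7 arrays are the lowest for the mean profile (-0.33 and -0.29), and the first uninjected OIR array is its highest (0.26).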

How the data were processed

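Total RNA of retina was extracted with Trizol and labelled with the WT Terminal Labeling Kit, per the labels' protocols. The deposited table gives 1 log2 value per transcript cluster and array, in 72688 rows. That the deposited values are log2 was inferred from their range, 1.03 to 13.67 over 65956 clusters, with 6732 control rows set aside. How the authors corrected background and normalized is not stated in the labels, and the table was used as it stands. Symbols (30604 clusters with 1, 2146 with several, 33206 with none) were updated through RefSeq genes of GRCm38.p6. A gene was read from its single-symbol cluster of highest mean and tested if at least 2 arrays exceeded their 30th percentile. One limma 3.58.1 model (R 4.3.3; eBayes with no trend) covered the 10 arrays and gave every difference, with Benjamini-Hochberg adjustment over 23255 genes and a threshold of 0.05. The median half-width of a 95% interval was 0.311 log2. The steps were tested on simulated data. Groups come from the sample titles. The 9 genes, the pathway lists, the markers, the motifs and the rule for named genes (the 9 genes, other pathway genes past the threshold or of smallest p, and the 8 genes of most like profile) were chosen with earlier results of these data known. Alternatives covered normalization, filter, weights, trend, block, cluster choice and leaving out arrays.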

Additional observations from a re-analysis of the deposited data

How the results depend on the processing

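The count of interferon response genes past the threshold was 0 in all 7 comparisons, and it was 0 in 132 of 133 counts recomputed under other settings. The exception was 1 gene, Ifit1 between the days (adjusted p = 0.0435), with the replicate number as a block and the numbers of the injected groups crossed, a setting chosen after seeing the data. Across genes, first-minus-second array differences correlated at 0.583 to 0.809 among the uninjected groups, at 0.399 for the injected pair and at -0.0567 to -0.406 for an injected with an uninjected group, so the numbers do not pair the samples throughout. With the plain replicate block 0 genes passed in each comparison, with 134 of all genes called in uninjected OIR in place of 115. That count of all genes was 0 with only the arrays of both groups, 12 with array weights, 0 to 84 without 1 array and 215 with crossed numbers, and between the days it was 345 with only those arrays and 1111 with array weights in place of 2454. Signs of 23 small differences, none past the threshold, turned without 1 array, over these ranges. In uninjected OIR against untreated retina, Ifit1 ran from -0.29 to 0.10, Ifit3 from -0.18 to 0.06 and Bst2 from -0.20 to 0.58. With PBS against uninjected OIR, Ifit1 ran from -0.01 to 0.38 and Bst2 from -0.70 to 0.09, and with ISOX DUAL Ifit1 from -0.21 to 0.43. For ISOX DUAL against PBS the ranges were -0.04 to 0.02 (Stat2), -0.12 to 0.05 (Irf7), -0.13 to 0.09 (Irf9), -0.39 to 0.24 (Ifit1), -0.05 to 0.35 (Ifit3), -0.25 to 0.04 (Eif2ak2) and -0.19 to 0.11 (Usp18). Against untreated day 17 retina they were, with PBS, -0.05 to 0.30 (Stat2), -0.01 to 0.19 (Ifit1), -0.05 to 0.19 (Ifit3) and -0.34 to 0.12 (Bst2), and with ISOX DUAL -0.06 to 0.28 (Stat2), -0.30 to 0.33 (Ifit1), -0.45 to 0.01 (Bst2) and -0.14 to 0.16 (Usp18). Between the days they were -0.10 to 0.25 (Stat2) and -0.02 to 0.13 (Eif2ak2). No sign turned under another normalization, filter, weighting, trend, block or cluster choice. Isg15 without the filter had its smallest adjusted p, 0.545, with PBS against untreated retina (0.46 ± 0.17 log2). The number of arrays and signal near the negative controls limit the precision.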
